A study of Mus musculus with 12 samples.

Results

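Left ventricles of Prkca T497A mice taken after pressure overload were compared with left ventricles of wild-type mice taken after a sham operation. The comparison uses 6 of the 12 RNA-seq libraries of the series: the 3 libraries named T497A TAC at 1 week and the 3 named WT sham at 1 week, chosen by library name, and it was read across all genes. T497A mice carry alanine in place of a threonine of protein kinase C alpha, which Prkca encodes. TAC, transverse aortic constriction, narrows the aorta and loads the left ventricle with pressure, and here the constriction was sized with a 27-gauge needle. Mice of both groups were operated on at 10 weeks of age and were 11 weeks old when tissue was taken. The groups differ both in genotype and in surgery, so that the effects of the mutation and of TAC cannot be told apart in this comparison. The labels give no drug, transgene or Cre, and they do not say whether each library came from its own animal or give the sex of the mice. P-values therefore measure only the spread between these libraries, which may be technical. The other 6 libraries, T497A sham and WT TAC, entered the fit for its estimate of the spread and are quoted only beside named genes.

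Protein kinase C alpha is the most abundant conventional protein kinase C isoform in the heart, and is activated by calcium and diacylglycerol downstream of Gq-coupled receptors. Phosphorylation of a threonine in its activation loop primes the kinase, and the kinase is known for dampening contractility through calcium handling in the sarcoplasmic reticulum. Pressure overload is known to switch on the fetal gene programme of cardiomyocytes, to drive proliferation of non-muscle cells and matrix deposition, and to lower transcripts of fatty acid oxidation and calcium cycling.

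The codon that the mutation names was read from the GENCODE M21 transcript ENSMUST00000059595 of Prkca on GRCm38. Counted from the first methionine, the codon at the position in T497A encodes threonine and lies in exon 13 of 17, at chr11:107978267-107978269 on the minus strand. The 45 bases around it (chr11:107978246-107978290) are shown because they hold the residue that sets the genotypes apart, with the reference codon for threonine in capitals. The alanine codon carried by the mice is not given in the sources used here.
Prkca: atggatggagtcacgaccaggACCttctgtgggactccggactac

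Prkca itself (ENSMUSG00000050965.14, chr11:107933387-108343928, minus strand) stood at 47.4, 43.5 and 42.2 CPM in WT sham 1 to 3 and at 50.3, 44.7 and 43.7 CPM in T497A TAC 1 to 3. CPM, the normalised read counts used here, divide each count by the scaled size of its library. The groups overlapped, and the log2 fold change was 0.06 ± 0.07 (standard error, adjusted p = 0.67), and ran from -0.0051 without T497A TAC 1 to 0.11 without WT sham 1. Here and below, log2 fold changes are T497A TAC over WT sham with their standard errors, and adjusted p is that of the quasi-likelihood F test of edgeR with Benjamini-Hochberg adjustment over all 17699 genes tested. Since the counts per gene cannot show a single changed base, this level does not check the genotype label.

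Total counts ran from 58932759 to 64403180 in the WT sham libraries and from 65803463 to 72594085 in the T497A TAC libraries. The scaling factors did not overlap (0.911 to 0.934 against 0.963 to 0.988). Mitochondrially encoded transcripts took 19.1 to 20.99% and 19.2 to 19.8% of counts. The labels name left ventricle as the tissue and cardiomyocyte as the cell type, and fibroblast, endothelial and macrophage markers were read in every library. The 12 cardiomyocyte markers summed to 77129 to 83380 CPM in WT sham and to 68471 to 73469 CPM in T497A TAC. Pearson correlations of log2 CPM across genes, which are not independent replicates, were 0.984 to 0.987 within the groups and 0.979 to 0.982 between them.

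Some libraries outside this comparison stand apart from these 6. The 3 T497A sham libraries held Xist, the RNA of the inactive X chromosome, at 160 to 215 CPM and the Y-linked Ddx3y at 0.0999 to 0.396 CPM. In WT sham and T497A TAC, Xist stood at 0.575 to 0.751 and 0.315 to 0.683 CPM, and Ddx3y at 104 to 108 and 90.1 to 95.8 CPM. Of 104 autosomal transcripts that differed at least 4-fold and were called between the sham groups (in which 5.79% of all genes were called), 7 were called between T497A TAC and WT sham (6.73%, against 10.0% of all genes tested) and 72 between T497A TAC and WT TAC. These transcripts were chosen for their difference between the sham groups, and the groups compared here were paired because they share such transcripts, so these values are a description. Their median absolute log2 difference was 0.72 between T497A TAC and WT sham and 2.32 between T497A TAC and WT TAC. Groups are named here as labelled. Drc3 on chromosome 11 is an example, at 4.54, 4.42 and 5.02 CPM in WT sham and 4.08, 3.78 and 3.33 CPM in T497A TAC. It stood at 0.869, 1.76 and 0.693 CPM in WT TAC and at 0.719, 0.472 and 0.616 CPM in T497A sham. For Drc3, T497A TAC was thus near WT sham, and WT TAC nearer to T497A sham.

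Between T497A TAC and WT sham, 1773 of 17699 genes were called at an adjusted p under 0.05, which is 10.0% of those tested. Of these, 1083 rose (6.12%) and 690 fell (3.90%). Changes of at least 2-fold were mostly rises, 265 against 27. The 3 and 3 libraries did not overlap for 1762 of the called genes and for 33.6% of all genes tested (17.0% higher and 16.6% lower in T497A TAC). The median log2 fold change of all genes was 0.0043. The count moved with the libraries used: it was 778, 924 and 903 without WT sham 1, 2 and 3, and 1452, 623 and 1075 without T497A TAC 1, 2 and 3. The share of calls that were rises was 61.1%, and was 82.7% without TMM factors (1597 rose and 335 fell). It was 51.7% with limma-voom, and 55.2% both with the DESeq2 test and with the 2 groups alone. In bulk tissue, fewer cells of a type and less RNA per cell cannot be told apart.

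**Figure D1:**
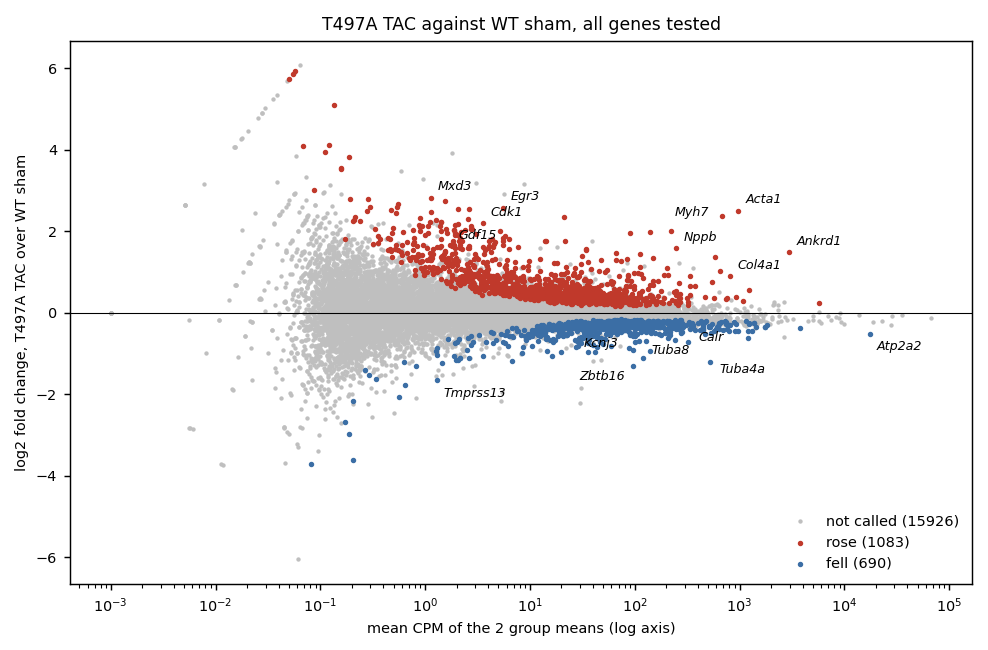
Each point is a gene: the x axis gives the mean CPM of the WT sham and T497A TAC group means (log axis) and the y axis the log2 fold change of T497A TAC over WT sham, with rises in red, falls in blue and genes that were not called in grey. The 1083 rises reach further from 0 than the 690 falls.

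The gene lists show where these changes lie. Of 21 lists of pathways and complexes, the cell cycle list had the highest median log2 fold change (1.52), followed by matrix and remodelling (1.00) and immediate early genes (0.72). Fatty acid oxidation (-0.29) and potassium and sodium channels (-0.28) had the lowest. Counts in each list stand beside 6.12% of all genes that rose and 3.90% that fell, and list medians beside 0.0043 for all genes.

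**Figure D2:**
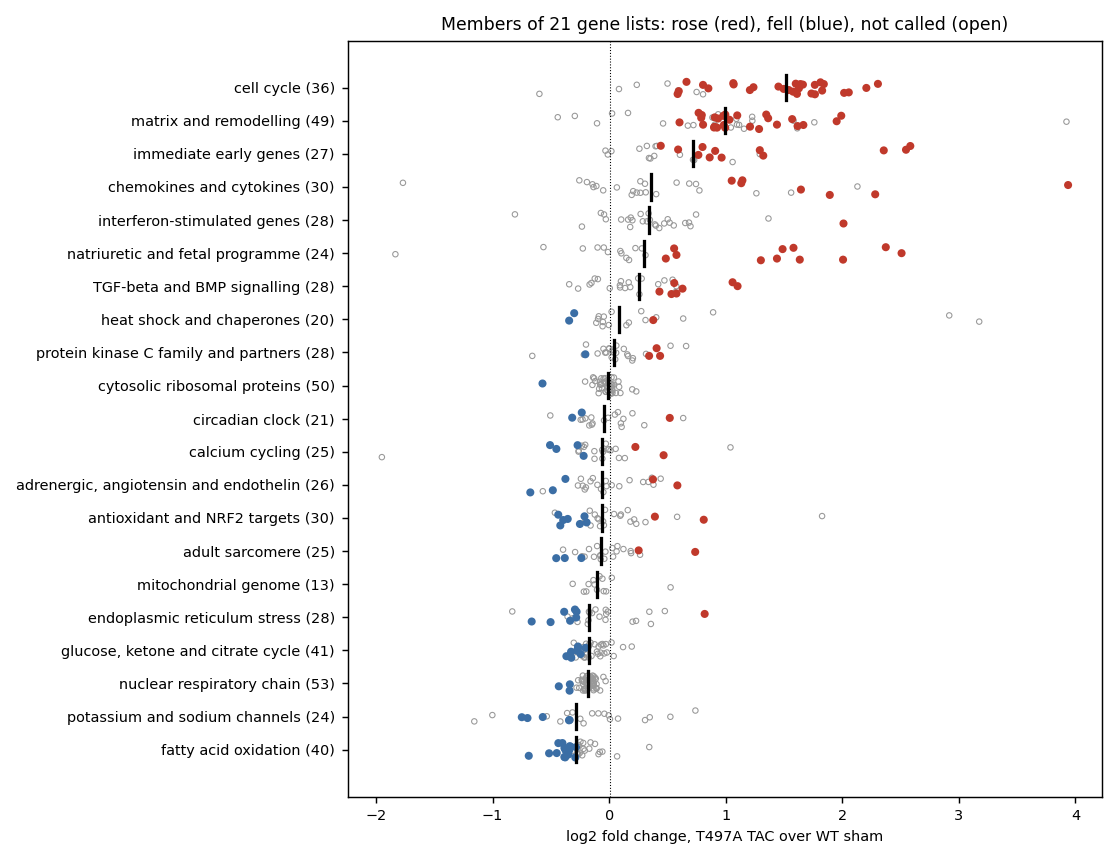
Log2 fold changes (x axis) of the members of 21 gene lists (y axis, number tested in brackets), with the list median as a black bar and the median of all genes as a dotted line. Red and blue points passed the test and open points did not; cell cycle, matrix and immediate early members lie to the right, and fatty acid oxidation and channel members to the left.

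Natriuretic peptide and fetal muscle transcripts were higher in T497A TAC. Of 24 members tested, 11 rose and none fell (45.8% rose, against 6.12% of all genes). The median log2 fold change was 0.30. The count was 7 without WT sham 1 or 3 or T497A TAC 2, and 9 or 10 without each other library. The members that rose are muscle proteins, natriuretic hormones and secreted or signalling proteins. Small heat shock proteins, metallothioneins, Actc1 and Tnni1 on the same list were not called, while Hspb6, a small heat shock protein of another list, rose.

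Nppb, the precursor of brain natriuretic peptide, stood at 162, 90.4 and 124 CPM in WT sham and at 305, 396 and 425 CPM in T497A TAC. It rose by 1.58 ± 0.24 (adjusted p = 0.0048), with no overlap between the groups. Nppa, which encodes atrial natriuretic peptide, moved from 84.7, 96.4 and 84.2 CPM to 382, 478 and 206 CPM, a rise of 2.01 ± 0.37 (adjusted p = 0.013). T497A TAC 3 was the lowest of its group, and the call was lost without WT sham 1 (adjusted p = 0.058) or WT sham 3 (0.051). Of 10 atrial markers tested, Nppa itself rose, Kcnj3 fell and 8 were not called, with 3 estimates above 0 and 7 below it (median -0.46), and the summed level was 306 to 524 CPM in WT sham and 378 to 674 CPM in T497A TAC. Myl7, an atrial myosin light chain, stood at 55.7, 84.5 and 6.64 CPM in WT sham and at 9.70, 12.8 and 9.47 CPM in T497A TAC. Sln, atrial sarcolipin, stood at 10.3, 14.4 and 0.947 CPM against 1.49, 2.62 and 2.52 CPM. Bmp10, which defines atrial muscle, was at 0 in all WT sham libraries and at 0 to 0.0308 CPM in T497A TAC. WT sham 1 and 2 were higher than the other 4 libraries for Myl7, Sln, Stard10, Kcnj3 and Myl4, a further atrial light chain, but not for Tbx5, Nr2f1, Nr2f2 or Dkk3. Nppa was higher in each T497A TAC library than in each WT sham library, and the part of atrial tissue in its rise was not tested.

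Acta1, the skeletal isoform of actin that the fetal heart uses, showed the largest rise of the list. Its levels were 292, 270 and 307 CPM in WT sham and 1514, 1696 and 1733 CPM in T497A TAC, a rise of 2.51 ± 0.33 (adjusted p = 0.0030). Other skeletal muscle markers did not move with it: of 6 tested, Acta1 was the only one called, and Mylpf stood at 1.14 to 1.52 CPM in WT sham and 0.501 to 1.41 CPM in T497A TAC. Myh7, the slow beta myosin heavy chain, went from 226, 208 and 224 CPM to 1518, 1171 and 724 CPM (2.37 ± 0.49, adjusted p = 0.021). This call was lost without any single WT sham library (adjusted p = 0.080, 0.077 and 0.073 without 1, 2 and 3) and without T497A TAC 1 (0.054) or 2 (0.070). Myh6, the fast alpha isoform of the adult mouse ventricle, stood at 30288, 27986 and 32861 CPM in WT sham and at 24362, 24100 and 25984 CPM in T497A TAC. It was lower in each T497A TAC library without passing the test (-0.29 ± 0.10, adjusted p = 0.082).

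The stretch-responsive Ankrd1, which encodes a repressor and titin-binding protein of the sarcomere, had the smallest adjusted p of the list. It stood at 1736, 1647 and 1341 CPM in WT sham and at 4295, 4519 and 4436 CPM in T497A TAC, a rise of 1.49 ± 0.10 (adjusted p = 7.8e-06). Xirp2, an actin-binding protein of the intercalated disc, rose by 0.56 ± 0.09 (adjusted p = 0.0017) from 998 ± 62.1 to 1468 ± 76.1 CPM (mean and SD, n = 3). Gdf15, a secreted stress cytokine, rose by 1.64 ± 0.18 (adjusted p = 0.00016) from 0.872 ± 0.0545 to 2.71 ± 0.355 CPM. These 3 genes and Nppb kept their calls in all 17 alternatives run.

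**Figure D3:**
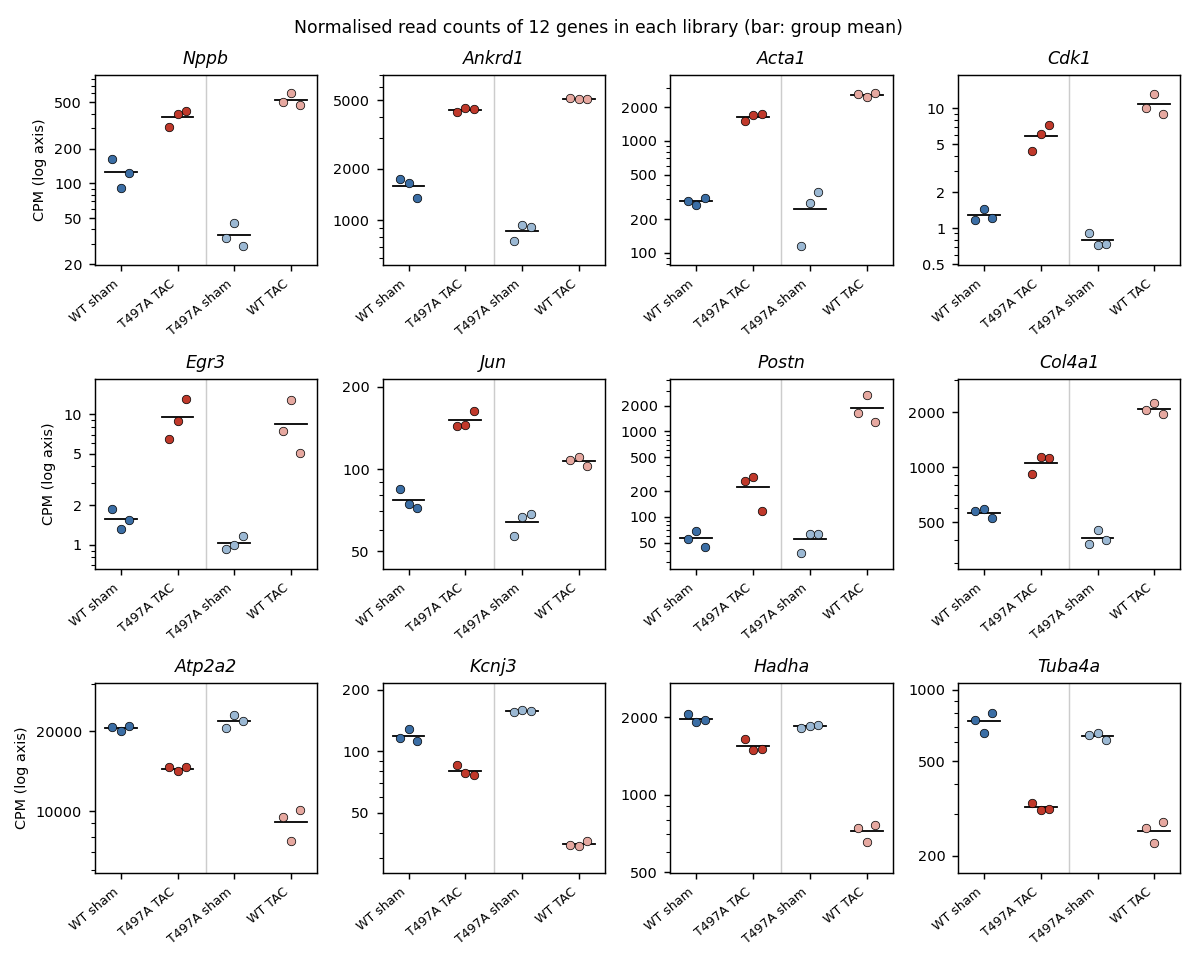
Normalised read counts (CPM, log axis) of 12 genes in each of the 12 libraries, with 3 points and a bar at the mean for each group; the 2 groups compared stand left of the grey line. Points of WT sham and T497A TAC do not overlap for any of the 12 genes. The T497A TAC mean lies between the WT sham and WT TAC means for all but Egr3 and Jun. For Nppb, Ankrd1 and Acta1 the TAC groups were not called apart.

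The promoter of Acta1 is shown as an example of the muscle programme (RefSeq start, GRCm38.p6). It holds, in capitals, a CArG box, the element bound by serum response factor, at 73 to 64 bases before the start, and the letters CATTCC, the element bound by TEAD factors, at 46 to 41 bases before it. The stretch is chr8:123894776-123894905 on the minus strand, printed 5′ to 3′.
Acta1: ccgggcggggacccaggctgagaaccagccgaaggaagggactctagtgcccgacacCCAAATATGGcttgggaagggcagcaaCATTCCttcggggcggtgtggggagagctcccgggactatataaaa

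Of 22 members of the list with a promoter window, 5 held CATTCC on either strand in the 130 bases before the start, as did 7.5% of all 27025 genes with a window. Among the 5 were Nppb, with the letters from 105 to 100 bases before its start, and Ankrd1, from 123 to 118 bases before it. A CArG box stood in 3 of the 22, against 0.932% of all genes with a window. A match is a description of letters and not a measured site.

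Transcripts of mitosis and DNA replication rose together in T497A TAC. Of 36 cell cycle members, all tested, 29 rose and none fell, and the median log2 fold change was 1.52. The 29 make up 80.6% of the list, against 6.12% of all genes. The count was 21 to 29 when each library was left out in turn. Ccnb2 and Cdk1 led the list, and the replication helicase genes Mcm2, Mcm3, Mcm5 and Mcm6 rose by 0.81, 0.59, 0.85 and 0.60. Cdkn1a, an inhibitor of cyclin-dependent kinases, was estimated at 0.81 but was not called (adjusted p = 0.16), and the cyclin D genes Ccnd1 (0.59) and Ccnd2 (0.50) were not called either.

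Cdk1, the kinase that drives entry into mitosis, stood at 1.18, 1.45 and 1.22 CPM in WT sham and at 4.40, 6.09 and 7.24 CPM in T497A TAC. It rose by 2.21 ± 0.21 (adjusted p = 9.8e-05). Ccnb2, a mitotic cyclin that partners Cdk1, went from 0.836, 0.862 and 0.913 CPM to 3.29, 4.15 and 5.48 CPM, a rise of 2.31 ± 0.28 (adjusted p = 0.00040). Ccna2, the cyclin of S phase and G2, went from 2.10, 2.29 and 1.81 CPM to 5.80, 8.86 and 10.4 CPM (2.02 ± 0.24, adjusted p = 0.00040). Every library of T497A TAC lay above every library of WT sham for these genes, and T497A TAC 1 was the lowest of its group each time. Anln, which encodes the cytokinetic ring protein anillin, rose by 1.58 ± 0.19 (adjusted p = 0.00043), from 3.14 ± 0.632 to 9.36 ± 1.81 CPM.

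Further genes of division stood among the 12 largest rises of the called genes that averaged at least 1 CPM, did not overlap and were neither pseudogenes nor predicted genes. The largest of these was Mxd3, a MAX-binding repressor expressed in dividing cells, at 0.273, 0.257 and 0.304 CPM in WT sham and 1.55, 2.42 and 2.00 CPM in T497A TAC (2.83 ± 0.41, adjusted p = 0.0013). Pbk, a mitotic kinase, rose by 2.54 ± 0.42 (adjusted p = 0.0031) and Kif2c, a kinesin that takes apart microtubules at centromeres, by 2.47 ± 0.37 (adjusted p = 0.0014). Cdk1, Ccnb2, Ccna2, Anln, Mxd3, Pbk and Kif2c kept their calls wherever they were tested in the 17 alternatives. The levels are low, with a mean of 0.349 CPM for Kif2c in WT sham.

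The promoters of Cdk1 and Ccnb2 are shown because they carry elements known from genes of late cell cycle phases. Capitals mark CCAAT, read on the other strand in Cdk1 and therefore printed there as its reverse complement, bound by the NF-Y complex, and TTTGAA, the core of the cell cycle genes homology region, which stands in the Cdk1 stretch only. The Cdk1 stretch runs from 130 to 27 bases before the start (chr10:69352939-69353042, minus strand), which leaves out bases that GENCODE puts in an exon, and the Ccnb2 stretch from 130 bases to 1 base before it (chr9:70421555-70421684, minus strand). A further TTTGAA of Cdk1, from 15 to 10 bases before its start, lies in the part left out.
Cdk1: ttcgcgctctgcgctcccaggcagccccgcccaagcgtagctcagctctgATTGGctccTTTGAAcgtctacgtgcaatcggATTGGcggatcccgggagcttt
Ccnb2: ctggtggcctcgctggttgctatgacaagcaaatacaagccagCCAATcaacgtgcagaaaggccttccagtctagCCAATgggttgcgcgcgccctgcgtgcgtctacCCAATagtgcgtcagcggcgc

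CCAAT on either strand stood within 130 bases before the start in 21 of 29 cell cycle members with a window (72.4% of genes, against 25.4% of all genes with a window), and TTTGAA in 8 of 29 (27.6% against 9.03%). The remaining 7 of the 36 members had no window. For the immediate early list the same letters stood in 6 and 1 of 23 genes.

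Immediate early genes, which respond to growth factors and stress without new protein synthesis, formed a further block of rises. Of 27 tested, 12 rose (44.4%, against 6.12% of all genes) and none fell, with a median of 0.72. The count was 9 to 12 when each library was left out. Fos, Dusp1 and Zfp36 were near 0 (0.02, -0.03 and -0.01, none called), while Egr and Jun genes rose.

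Egr3, a zinc finger transcription factor, stood at 1.89, 1.32 and 1.54 CPM in WT sham and at 6.45, 8.89 and 13.2 CPM in T497A TAC (2.58 ± 0.35, adjusted p = 0.0016). Egr2 went from 0.631, 0.734 and 0.913 CPM to 4.64, 3.62 and 5.08 CPM (2.55 ± 0.45, adjusted p = 0.0061). Egr1 was the most abundant of the 3, at 25.9, 25.3 and 20.5 CPM against 40.1, 40.5 and 44.3 CPM (0.80 ± 0.11, adjusted p = 0.00086). The libraries of the groups did not overlap for any of these. Jun, a subunit of the AP-1 factor, rose by 0.96 ± 0.08 (adjusted p = 4.3e-05) from 84.8, 74.7 and 72.0 CPM to 144, 145 and 163 CPM. Btg2, an antiproliferative gene induced by p53 and growth factors, rose by 1.32 ± 0.15 (adjusted p = 0.00073) from 38.8, 64.0 and 42.6 CPM to 113, 118 and 133 CPM. These 5 genes kept their calls in all 17 alternatives. Atf3, a stress-induced transcription factor, went from 6.04, 7.56 and 6.93 CPM to 18.9, 33.3 and 52.8 CPM (2.36 ± 0.52, adjusted p = 0.026), but its call was lost without WT sham 1, 2 or 3 (adjusted p = 0.10, 0.080 and 0.085), T497A TAC 2 (0.076) or 3 (0.070). T497A TAC 3 was the highest library for Egr3 and Atf3 and the lowest of its group for Nppa and Myh7.

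A CArG box stood in 3 of 23 immediate early genes with a window (13%, against 0.932% of all genes with a window). The promoter of Egr2 holds one at 73 to 64 bases before the start, in capitals (chr10:67537740-67537868, plus strand). Egr2 has 5 windows, and the one shown starts furthest downstream among those that hold the box.
Egr2: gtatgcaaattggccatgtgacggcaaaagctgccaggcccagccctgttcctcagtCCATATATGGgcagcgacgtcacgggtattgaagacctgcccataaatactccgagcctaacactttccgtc

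Matrix genes rose in number but to different degrees in the 3 T497A TAC libraries. Of 49 matrix and remodelling members tested, 26 rose (53.1%, against 6.12% of all genes) and none fell, with a median log2 fold change of 1.00. The estimate was above 0 for 46 and the libraries did not overlap for 40, which were higher in T497A TAC, as were 17.0% of all genes. The count was 16, 16 and 15 without WT sham 1, 2 and 3, and 17, 15 and 27 without T497A TAC 1, 2 and 3. The summed level of the list was 4151 to 4757 CPM in WT sham, and 8750, 9507 and 7513 CPM in T497A TAC 1, 2 and 3.

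Col4a1, a collagen of basement membranes, stood at 577, 586 and 525 CPM in WT sham and at 917, 1132 and 1116 CPM in T497A TAC (0.91 ± 0.09, adjusted p = 0.00014). Col4a2, its partner chain, rose by 0.77 ± 0.08 (adjusted p = 0.00016). Col6a3, a chain of the microfibrillar collagen VI, rose by 0.90 ± 0.12 (adjusted p = 0.00086) from 59.9 ± 2.02 to 112 ± 9.41 CPM. Sparc, a collagen-binding matricellular protein, rose by 1.03 ± 0.15 (adjusted p = 0.0020) from 425 ± 29.4 to 869 ± 91.6 CPM. These 4 kept their calls in all 17 alternatives.

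Periostin and the fibrillar collagens differed more among the T497A TAC libraries. Postn, a matricellular protein of activated fibroblasts, stood at 55.3, 68.7 and 43.8 CPM in WT sham and at 259, 290 and 117 CPM in T497A TAC (1.99 ± 0.42, adjusted p = 0.021). Col3a1 stood at 327, 377 and 274 CPM against 909, 964 and 645 CPM (1.36 ± 0.31, adjusted p = 0.026). Col1a1, the main chain of collagen I, stood at 165, 166 and 143 CPM against 417, 449 and 244 CPM and was not called (1.23 ± 0.36, adjusted p = 0.067). T497A TAC 3 was the lowest of its group for all 3, though above every WT sham library. Leaving out a library ended the calls of Postn (adjusted p = 0.081, 0.053 and 0.077 without WT sham 1, 2 and 3, and 0.055 and 0.078 without T497A TAC 1 and 2) and of Col3a1 (0.090, 0.060 and 0.090, and 0.067 and 0.095, in the same order). Ccn2, the connective tissue growth factor, rose by 1.44 ± 0.31 (adjusted p = 0.022) and was not called without any of the 6 libraries (adjusted p = 0.052 to 0.087).

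Genes of TGF-beta and BMP signalling were also higher in part. Of 28 TGF-beta and BMP members tested, 7 rose (25%, against 6.12% of all genes) and none fell (median 0.25), with 4 without WT sham 1 or T497A TAC 2. Tgfb1, the main TGF-beta ligand of the remodelling heart, stood at 26.7, 26.8 and 29.01 CPM in WT sham and at 39.8, 40.5 and 39.3 CPM in T497A TAC (0.53 ± 0.08, adjusted p = 0.0015). Fstl1, a secreted follistatin-like glycoprotein, rose by 1.102 ± 0.20 (adjusted p = 0.0096) and Fstl3, which binds activins, by 1.06 ± 0.19 (adjusted p = 0.0037). Id3, a target of BMP signalling, rose by 0.63 ± 0.11 (adjusted p = 0.0040). The receptors Tgfbr1, Tgfbr2 and Tgfbr3 were not called (0.25, 0.18 and -0.15).

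Fibroblast markers rose in part. Of 19 fibroblast markers, 6 rose (31.6%, against 6.12% of all genes) and none fell (median 0.62). The count was 2, 1 and 1 without WT sham 1, WT sham 3 and T497A TAC 2. Thy1, a fibroblast surface protein, rose by 0.62 ± 0.11 (adjusted p = 0.0041), and Pdgfra, a receptor of resting fibroblasts, stood at 53.1, 54.9 and 54.0 CPM in WT sham and 63.8, 53.3 and 45.3 CPM in T497A TAC with an estimate of 0.00 (adjusted p = 0.99). The summed fibroblast markers were 2821 to 3150 CPM in WT sham and 3809, 3606 and 2807 CPM in T497A TAC 1, 2 and 3. T497A TAC 3 was the lowest of its group for both this sum and the matrix sum, and the part of fibroblast markers in the matrix result was not tested.

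Of 30 chemokines and cytokines tested, 7 rose (23.3%, against 6.12% of all genes) and none fell (median 0.36). The count was 3, 3 and 1 without WT sham 1, 2 and 3, and 3, 0 and 3 without T497A TAC 1, 2 and 3. Ccl2, which draws monocytes, stood at 1.67, 1.03 and 1.12 CPM in WT sham and 2.19, 4.38 and 5.38 CPM in T497A TAC (1.65 ± 0.36, adjusted p = 0.012), and its call was lost without WT sham 2 (0.059), WT sham 3 (0.057) or T497A TAC 2 (0.053). Il6 was read at 0, 0.0367 and 0 CPM in WT sham and at 0.288, 0.246 and 0.0858 CPM in T497A TAC, levels of a few reads that give its fold no precision. Of 28 interferon-stimulated genes, only Mx1, an antiviral GTPase, was called (2.01 ± 0.50, adjusted p = 0.022), and it was not called without WT sham 2 (0.068) or 3 (0.086) or T497A TAC 2 (0.078) or 3 (0.073). This call makes up 3.57% of the list, below the 6.12% of all genes that rose. Without T497A TAC 1, 3 genes of that list were called. Macrophage markers summed to 286 to 337 CPM in WT sham and 380 to 406 CPM in T497A TAC. Of 20, 3 rose (15%, against 6.12% of all genes, and 1 without WT sham 1) and none fell (median 0.45). Trem2, a lipid receptor of macrophages, rose by 1.26 ± 0.25 (adjusted p = 0.0063) from 1.21 ± 0.205 to 2.91 ± 0.864 CPM. The defining genes Adgre1 and Csf1r were estimated at 0.49 and 0.45 without being called. The part of macrophage abundance in the cytokine result was not tested. None of 14 lymphocyte and neutrophil markers was called by edgeR, and Ly6g was at 0 in all 6 libraries.

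Endothelial genes changed in part. Of 20 markers, 5 rose (25%, against 6.12% of all genes) and 1 fell (5%, near the 3.90% of all genes), with a median of 0.19. The number that rose was 3 without WT sham 1 or T497A TAC 2 and 9 without T497A TAC 1. The fall was lost without WT sham 1 or 2 or T497A TAC 2 or 3. Cldn5, a tight junction protein, rose by 0.69 ± 0.10 (adjusted p = 0.0013), Esam, an endothelial adhesion molecule, by 0.43 ± 0.08 (adjusted p = 0.0057), and Sele, the cytokine-induced E-selectin, by 1.12 ± 0.19 (adjusted p = 0.0027) from 1.72, 1.67 and 2.10 CPM to 4.10, 3.63 and 4.18 CPM. Kdr and Pecam1 were not called (0.01 and 0.22). Wt1, a transcription factor of epicardial cells that injured hearts also show in endothelium, stood at 3.02, 3.08 and 3.14 CPM in WT sham and at 4.64, 7.001 and 9.77 CPM in T497A TAC (1.21 ± 0.22, adjusted p = 0.0039). Other mesothelial markers did not move with it: Upk3b stood at 0.580, 5.83 and 3.20 CPM against 2.40, 1.26 and 0.973 CPM.

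**Figure D4:**
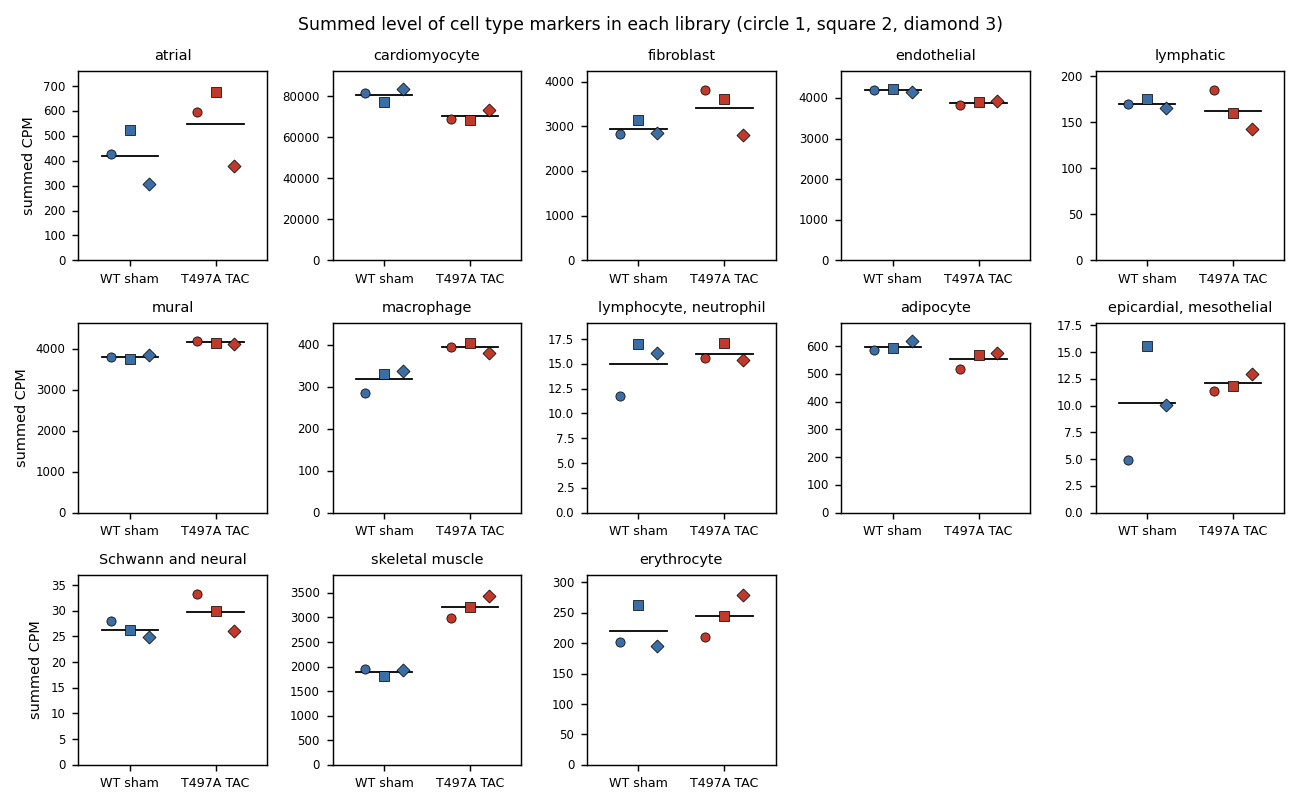
Summed CPM (y axis, from 0) of 13 sets of cell type markers in the 3 WT sham (blue) and 3 T497A TAC (red) libraries, with a bar at the group mean. Cardiomyocyte, endothelial and adipocyte sums lie lower and macrophage, mural and skeletal muscle sums higher in each T497A TAC library than in each WT sham library. Abundant members weigh most in a sum, such as Cd36 for endothelial, Des for mural and Acta1 for skeletal muscle markers. Fabp4 stood at 579, 587 and 617 CPM in WT sham, where the adipocyte sum was 587 to 617 CPM. All 8 adipocyte markers tested had estimates below 0 (median -1.63), none called by edgeR. Adipoq stood at 0.682, 0.367 and 0.0338 CPM in WT sham 1 to 3, and at 0.0607, 0.215 and 0.0572 CPM in T497A TAC 1 to 3. Of 20 endothelial markers, 13 estimates lay above 0 and 7 below it.

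Among calcium cycling genes, Atp2a2 and Hrc fell. Of 25 tested, 4 fell (16%, against 3.90% of all genes) and 2 rose (8%, near the 6.12% of all genes), with a median of -0.06. The number that fell was 2 without any single WT sham library, and 3, 1 and 3 without T497A TAC 1, 2 and 3, and the number that rose was 1 without WT sham 1 or 3 or T497A TAC 2 or 3. Atp2a2, the sarcoplasmic reticulum calcium pump SERCA2, stood at 20761, 20009 and 20948 CPM in WT sham and at 14666, 14142 and 14624 CPM in T497A TAC (-0.51 ± 0.10, adjusted p = 0.0066). The groups did not overlap, and the call held in all 17 alternatives. Atp2b4, a calcium pump of the plasma membrane, rose by 0.47 ± 0.08 (adjusted p = 0.0029) from 34.6 ± 4.35 to 47.9 ± 1.40 CPM. Hrc, a calcium-binding protein of the sarcoplasmic reticulum, fell from 1524 ± 7.10 to 1114 ± 32.9 CPM (-0.45 ± 0.10, adjusted p = 0.012), although not without T497A TAC 2 (0.070). Ryr2, the calcium release channel, was lower in each T497A TAC library (2145, 2120 and 2138 against 2583, 2489 and 2458 CPM) without being called (-0.23 ± 0.07, adjusted p = 0.060). Pln, which inhibits SERCA2, was estimated at -0.26 ± 0.11 (adjusted p = 0.16).

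Sarcomere genes were mostly not called. Of 25 tested, 2 rose (8%, near the 6.12% of all genes) and 3 fell (12%, against 3.90%), with a median of -0.07, with 1 rise without each library in turn, and 1 fall without each except T497A TAC 1 (2). Synpo2l, an actin-bundling protein of the Z-disc, rose by 0.74 ± 0.09 (adjusted p = 0.00031) from 217, 182 and 201 CPM to 332, 338 and 332 CPM. Cmya5, a large anchoring protein of the cardiac dyad, fell from 1149, 1097 and 1117 CPM to 862, 788 and 805 CPM (-0.45 ± 0.06, adjusted p = 0.00061). Ttn, the giant elastic filament, and Actn2, the Z-disc actinin, were not called (-0.07 and 0.06).

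Channel transcripts fell in part. Among 24 genes of potassium and sodium channels, 5 fell (20.8%, against 3.90% of all genes) and none rose (median -0.28). The count was 3 without WT sham 1 or 2 or T497A TAC 2. The inward rectifiers made up 3 of the 5. Kcnj3, a subunit of the acetylcholine-gated channel, stood at 116, 129 and 112 CPM in WT sham and at 85.5, 78.2 and 76.9 CPM in T497A TAC (-0.57 ± 0.06, adjusted p = 0.00016). Kcnj12, a subunit of the resting potassium current, went from 35.8, 32.7 and 36.8 CPM to 21.7, 20.8 and 22.3 CPM (-0.70 ± 0.08, adjusted p = 0.00016). Kcnj5, the partner of Kcnj3, fell by 0.34 (standard error 0.07, adjusted p = 0.0055). Kcnj3 is also an atrial marker, and the part of atrial tissue, whose marker levels are given above, was not tested.

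Receptor and cyclase genes of the adrenergic, angiotensin and endothelin systems were mostly not called: of 26 tested, 2 rose (7.69%, near the 6.12% of all genes) and 3 fell (11.5%, against 3.90%), with a median of -0.06. The rises were 1 without WT sham 1 or T497A TAC 1, and the falls 1 without WT sham 3 or T497A TAC 2. Ace, which makes angiotensin II, rose by 0.59 ± 0.10 (adjusted p = 0.0043) from 79.6, 80.1 and 76.5 CPM to 110, 124 and 120 CPM. Adcy6, an adenylyl cyclase coupled to beta receptors, fell from 284 ± 14.4 to 219 ± 5.49 CPM (-0.38 ± 0.08, adjusted p = 0.0094). Corin, the protease that processes pro-atrial natriuretic peptide, fell from 324 ± 17.0 to 232 ± 13.2 CPM (-0.48 ± 0.11, adjusted p = 0.014), with the call lost without WT sham 3 (0.059), T497A TAC 2 (0.067) or T497A TAC 3 (0.055).

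Fatty acid oxidation formed the largest block of falls. Of 40 members tested, 18 fell and none rose (45% fell, against 3.90% of all genes), and the median log2 fold change was -0.29. The changes were small, and 31 of the 40 were lower in every T497A TAC library than in every WT sham library, as were 16.6% of all genes. The count was 8, 10 and 9 without WT sham 1, 2 and 3, and 19, 3 and 9 without T497A TAC 1, 2 and 3. Eci1, an isomerase of the mitochondrial pathway, stood at 313, 293 and 293 CPM in WT sham and at 245, 221 and 226 CPM in T497A TAC (-0.38 ± 0.06, adjusted p = 0.0029). Slc25a20, the carnitine and acylcarnitine carrier, went from 259, 251 and 249 CPM to 214, 190 and 196 CPM (-0.34 ± 0.06, adjusted p = 0.0050). Etfb, which passes electrons from acyl-CoA dehydrogenases to the respiratory chain, went from 77.8 ± 1.21 to 57.0 ± 1.64 CPM (-0.45 ± 0.08, adjusted p = 0.0052). These 3 kept their calls in all 17 alternatives. Hadha, the alpha subunit of the trifunctional protein, was the most abundant of those named, at 2055, 1917 and 1946 CPM against 1641, 1489 and 1511 CPM (-0.35 ± 0.07, adjusted p = 0.0079, and 0.056 without T497A TAC 2).

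The regulators of this pathway were less uniform. Ppargc1a, the coactivator of mitochondrial biogenesis, fell from 191, 151 and 136 CPM to 103, 96.4 and 96.8 CPM (-0.69 ± 0.14, adjusted p = 0.011, and 0.053 without T497A TAC 2). Ppara (-0.25) and Cpt1b, the gate of fatty acid entry into muscle mitochondria (22.4 ± 1.90 against 19.2 ± 1.62 CPM, -0.22 ± 0.12, adjusted p = 0.27), were not called. Nuclear-encoded respiratory chain subunits had a median of -0.18 over 53 genes, of which 47 were lower without overlap, as were 16.6% of all genes. Of the 53, 3 fell, a share (5.66%) near the 3.90% of all genes. That count was 1, 1 and 0 without WT sham 1, WT sham 3 and T497A TAC 2. Cox7a1, the muscle isoform of a cytochrome oxidase subunit, fell from 655 ± 26.6 to 485 ± 17.5 CPM (-0.43 ± 0.09, adjusted p = 0.0098, and 0.058 without T497A TAC 2). None of the 13 mitochondrially encoded messages was called by edgeR, with a median of -0.10.

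In glucose, ketone and citrate cycle metabolism, 9 of 41 genes fell (22%, against 3.90% of all genes) and none rose (median -0.17). The count was 1, 3 and 4 without WT sham 1, 2 and 3, and 3, 2 and 3 without T497A TAC 1, 2 and 3. Hk2, the insulin-regulated hexokinase of muscle, fell from 531, 486 and 486 CPM to 375, 391.7 and 400 CPM (-0.37 ± 0.07, adjusted p = 0.0067) and kept its call in all 17 alternatives. Pfkl, the liver type of phosphofructokinase, fell from 148 ± 5.32 to 118 ± 9.92 CPM (-0.33 ± 0.07, adjusted p = 0.012, and 0.061 without WT sham 1). The cardiomyocyte markers, summed above, were lower in T497A TAC as well, with a median of -0.20. Of 12, 1 was called, a fall (8.33%, against 3.90% of all genes), and none without each library in turn. Estimates lay below 0 for 10 of the 12, and 7 were lower without overlap, as were 16.6% of all genes. The part of cardiomyocyte markers in the metabolic result was not tested.

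Chaperones of the endoplasmic reticulum fell in T497A TAC. Of 28 genes of the endoplasmic reticulum stress list, 7 fell (25%, against 3.90% of all genes) and 1 rose (3.57%, below the 6.12% of all genes). The median was -0.17, and 4 fell without WT sham 1. Hspa5, the lumenal chaperone BiP, stood at 658, 643 and 595 CPM in WT sham and at 390, 457 and 491 CPM in T497A TAC (-0.50 ± 0.08, adjusted p = 0.0015). Herpud1, a component of the degradation machinery, went from 299, 281 and 303 CPM to 177, 178 and 202 CPM (-0.66 ± 0.10, adjusted p = 0.0015). Calr, the calcium-binding chaperone calreticulin, went from 372, 387 and 379 CPM to 270, 296 and 305 CPM (-0.39 ± 0.06, adjusted p = 0.0026), and Canx, its membrane-bound relative, fell from 393 ± 16.7 to 321 ± 17.0 CPM (-0.29 ± 0.06, adjusted p = 0.0059). No library of either group overlapped the other for these 4, whose calls held in all 17 alternatives. The single rise was Asns, which makes asparagine (0.82). The list had no rise without T497A TAC 2 and 2 rises without WT sham 1. Of 20 heat shock and chaperone genes, 1 rose (5%, near the 6.12% of all genes) and 2 fell (10%, against 3.90%), with a median of 0.08. The rise was the small heat shock protein Hspb6, from 808 ± 53.2 to 1050 ± 81.4 CPM (0.38 ± 0.08, adjusted p = 0.0092, and 0.051 without WT sham 2). There were 6 rises without T497A TAC 1 and none without WT sham 2, and 1 fall without WT sham 2, T497A TAC 1 or T497A TAC 2. The mitochondrial chaperone Hspd1 fell from 389 ± 4.13 to 306 ± 9.49 CPM (-0.34 ± 0.07, adjusted p = 0.0080).

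Of 30 antioxidant genes, 2 rose (6.67%, near the 6.12% of all genes) and 7 fell (23.3%, against 3.90%), with a median of -0.06, and 2 falls were left without any single library other than T497A TAC 1 (6). Hmox1, the inducible heme oxygenase, rose by 0.81 ± 0.14 (adjusted p = 0.0039) from 7.80, 6.77 and 7.93 CPM to 11.7, 13.1 and 14.7 CPM. Gpx1, a glutathione peroxidase, rose by 0.39 ± 0.06 (adjusted p = 0.0019). The glutathione transferases Mgst1 and Gstm1 fell, by 0.44 and 0.42 (standard errors 0.08 and 0.08, adjusted p = 0.0037 and 0.0042). These 4 kept their calls in all 17 alternatives. Of 21 clock genes, 1 rose (4.76%, near the 6.12% of all genes) and 2 fell (9.52%, against 3.90%). There were 2 rises without WT sham 3, and 1 fall without WT sham 2 and none without each other library. Bhlhe40, a repressor induced by many stimuli, rose by 0.52 ± 0.10 (adjusted p = 0.0051), while Arntl, Per2 and Nr1d1 were not called (0.20, 0.12 and -0.20). Among 50 cytosolic ribosomal protein genes the median was -0.01 and the only call was Rpl3l, the muscle paralogue of Rpl3. Rpl3l stood at 251, 259 and 253 CPM in WT sham and at 170, 163 and 178 CPM in T497A TAC (-0.58 ± 0.08, adjusted p = 0.00074), while Rpl3 was estimated at 0.20 (adjusted p = 0.057).

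Tuba4a and Tuba8 stood among the 12 largest falls of the called genes that averaged 1 CPM or more, did not overlap and were neither pseudogenes nor predicted genes. Tuba4a, an alpha tubulin, stood at 746, 657 and 802 CPM in WT sham and at 335, 311 and 314 CPM in T497A TAC (-1.20 ± 0.08, adjusted p = 7.8e-06). Tuba8, a further alpha tubulin of striated muscle, went from 177, 150 and 161 CPM to 69.9, 75.5 and 82.7 CPM (-1.095 ± 0.11, adjusted p = 0.00016). After these values were seen, the alpha, beta and gamma tubulins were listed: of 17 genes and pseudogenes tested, 3 fell and 1 rose. Over all genes tested, 3.90% fell and 6.12% rose. The third to fall was Tubb4b, a beta tubulin, from 186, 169 and 197 CPM to 85.8, 101 and 102 CPM (-0.93 ± 0.10, adjusted p = 0.00016). The rise was Tubb2b, from 2.96 ± 0.594 to 5.56 ± 1.42 CPM (0.91 ± 0.25, adjusted p = 0.039), with the call lost without WT sham 1, 2 or 3 (0.052, 0.13 and 0.13), T497A TAC 2 (0.15) or 3 (0.12). Tubb5 and Tuba1a, at 104 and 37.1 CPM in WT sham, were not called (0.18 and 0.15). Genes of such families are similar in sequence, and how reads that map to several places were counted is not given in the sources used here.

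The other large falls within those limits have varied roles. Tmprss13, a membrane serine protease, stood at 2.29, 1.85 and 1.72 CPM in WT sham and at 0.516, 0.8001 and 0.544 CPM in T497A TAC (-1.66 ± 0.35, adjusted p = 0.011). Zbtb16, a zinc finger repressor induced by glucocorticoids, went from 168, 125 and 119 CPM to 36.9, 57.9 and 72.9 CPM (-1.30 ± 0.24, adjusted p = 0.012, and 0.052 without T497A TAC 2). Ptgfr, the receptor of prostaglandin F, fell from 9.38 ± 0.957 to 4.17 ± 1.29 CPM (-1.17 ± 0.20, adjusted p = 0.0037). Cntn2, a cell adhesion molecule of the conduction system, fell from 19.002, 24.5 and 22.2 CPM to 10.9, 9.49 and 11.4 CPM (-1.05 ± 0.20, adjusted p = 0.0072), and Tcf23, a basic helix-loop-helix factor, by 1.11 (standard error 0.22, adjusted p = 0.0078). The calls of Sfrp5, Bcl11b, Cngb3 and Cox6b2 (-1.16 to -1.07) were lost without 1 or more libraries, at adjusted p of up to 0.17. For Sfrp5 these were WT sham 1 (0.17) and 2 (0.11) and T497A TAC 1 (0.066), 2 (0.17) and 3 (0.11), and for Bcl11b WT sham 1 (0.13) and 3 (0.17) and T497A TAC 2 (0.17) and 3 (0.15). For Cngb3 they were WT sham 2 (0.067) and 3 (0.065) and T497A TAC 2 (0.064) and 3 (0.059), for Cox6b2 WT sham 1 (0.053) and 3 (0.13) and T497A TAC 2 (0.12) and 3 (0.099).

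**Figure D5:**
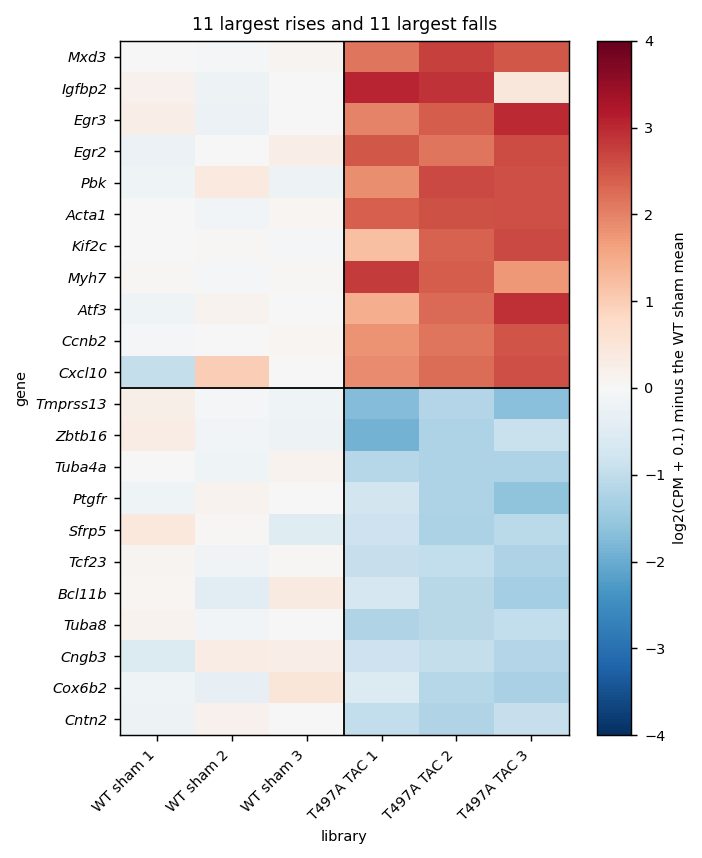
Heat map of log2(CPM + 0.1) minus the WT sham mean for the 11 largest rises (above the line) and the 11 largest falls (below it), of called genes averaging 1 CPM or more without overlap, in the 6 libraries compared (columns). Rises reach further than falls, and T497A TAC 3 is near the WT sham level for Igfbp2 but the reddest library for Egr3 and Atf3.

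Of the largest rises within those limits not yet described, Igfbp2, a binding protein of insulin-like growth factors, was high in T497A TAC 1 and 2 and close to WT sham in T497A TAC 3. It stood at 0.461, 0.330 and 0.406 CPM in WT sham and at 3.98, 3.57 and 0.572 CPM in T497A TAC (2.75 ± 0.61, adjusted p = 0.022), and its call was lost without WT sham 1, 2 or 3 (0.080, 0.085 and 0.078), T497A TAC 1 (0.059) or 2 (0.079). Cxcl10, an interferon-induced chemokine, stood at 0.136, 0.807 and 0.355 CPM against 1.61, 2.05 and 2.63 CPM (2.28 ± 0.61, adjusted p = 0.036, and 0.053 to 0.12 without any of the libraries except WT sham 2).

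Genes of the protein kinase C pathway were mostly not called. Of 28 isoforms, activators and phosphatases tested, 3 rose (10.7%) and 1 fell (3.57%, near the 3.90% of all genes), with a median of 0.05. The rises were 2 without WT sham 3 or T497A TAC 1 and 1 without each other library, and the fall was lost without each. Prkch, the eta isoform, stood at 24.6, 25.6 and 22.5 CPM in WT sham and at 29.1, 32.6 and 36.6 CPM in T497A TAC (0.44 ± 0.08, adjusted p = 0.0057), and kept its call in all 17 alternatives. Plcb1, a phospholipase C activated by Gq, rose by 0.41 ± 0.11 (adjusted p = 0.033), and Rgs4, which switches off Gq, by 0.34 ± 0.09 (adjusted p = 0.024). Plcb1 was not called without any of the 6 libraries (0.067 to 0.12), and Rgs4 not without WT sham 1 (0.073) or 2 (0.11) or T497A TAC 2 (0.099) or 3 (0.081). Ppp1cb, a catalytic subunit of protein phosphatase 1, fell from 457 ± 22.8 to 397 ± 10.9 CPM (-0.20 ± 0.06, adjusted p = 0.040, and 0.050 to 0.17 without each library). Pdpk1, the kinase that phosphorylates the activation loop, was estimated at -0.05 and the delta and epsilon isoforms Prkcd and Prkce at 0.53 and -0.20, none called.

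Within 10 Mb of Prkca on chromosome 11, 48 of 343 genes tested were called (14.0%), 41 higher and 7 lower. On the whole of chromosome 11, 144 of 1410 were called (10.2%), which is near the 10.0% over all genes.

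For several named genes the level in T497A TAC was set beside that in WT TAC with the test of that difference, in which 35.7% of all genes were called. This comparison shares the T497A TAC libraries with the main one, and 72 of the 104 transcripts described above were called in it. Levels in WT TAC were further from WT sham for Nppa (2596 ± 189 CPM, T497A TAC over WT TAC -2.87 ± 0.38, adjusted p = 0.00045) and Postn (1865 ± 724 CPM, -3.07 ± 0.43, adjusted p = 0.00067). The same held for Col4a1 (2079 ± 141 CPM, -0.98 ± 0.09, adjusted p = 4.7e-06), Atp2a2 (9124 ± 1232 CPM, 0.67 ± 0.10, adjusted p = 0.00015), Kcnj3 (35.1 ± 1.01 CPM, 1.19 ± 0.06, adjusted p = 6.7e-08) and Hadha (720 ± 56.7 CPM, 1.103 ± 0.07, adjusted p = 2.4e-07).

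Other genes were further from WT sham in T497A TAC than in WT TAC. Jun stood at 107 ± 4.15 CPM in WT TAC (T497A TAC over WT TAC 0.50 ± 0.08, adjusted p = 0.00030) and Btg2 at 63.8 ± 2.77 CPM (0.93 ± 0.15, adjusted p = 0.00066). Calr stood at 394 ± 25.9 CPM in WT TAC (-0.44 ± 0.06, adjusted p = 0.00012) and Tubb4b at 140 ± 19.04 CPM (-0.54 ± 0.10, adjusted p = 0.00067). For Ankrd1 (5126 ± 24.2 CPM in WT TAC, -0.21 ± 0.10, adjusted p = 0.11), Nppb (525 ± 66.4 CPM, -0.48 ± 0.23, adjusted p = 0.14) and Acta1 (2585 ± 116 CPM, -0.65 ± 0.32, adjusted p = 0.15) the TAC groups were not called apart. These 3 were called apart without TMM factors (adjusted p = 0.00065, 0.031 and 0.043) and by limma-voom (0.025, 0.029 and 0.0076), lower in T497A TAC each time, and Acta1 also without the T497A sham group (9.1e-05).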

How the data were processed

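RNA was sequenced from left ventricle with the KAPA mRNA HyperPrep kit as single-end reads, per the labels' protocols. The authors deposited raw read counts per gene for 12 libraries, and all columns were used. Per the submitters' processing notes, the tools were Trim Galore 0.6.4, STAR 2.7.3a, featureCounts of Subread 1.6.3 and limma 3.50.3, with mm10 and GRCh38 named as builds and no role given. No source used here gives the annotation, the strand setting or the treatment of multimapping reads. Overlapping genes and near-identical copies are therefore uncertain.

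Of 55401 gene IDs, 54349 were found in GENCODE M21 by full versioned ID, 55141 once versions were dropped, and 260 in neither way. Groups came from library names in the labels. Genes were filtered with filterByExpr, leaving 17699, and scaled with TMM. Genes were tested by edgeR 4.0.16 with its quasi-likelihood method (R 4.3.3, robust, 1 mean per group over all 12 libraries, 8 residual degrees of freedom), and a gene was called where its p, adjusted by Benjamini-Hochberg, was under 0.05. The smallest p of an exact 3 against 3 test would be 0.1. In the text, ± after a log2 fold change is its standard error and ± after CPM the SD of 3 libraries.

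The comparison, the 34 gene lists and the rule for naming genes were chosen with earlier results of these data known. The rule takes Prkca, 16 fixed genes and the top 12 rises and top 12 falls by fold, where the gene was called, averaged 1 CPM or more, did not overlap and was neither a pseudogene nor a predicted gene. From each list it takes up to 4 called members by smallest p. Some of these genes are not reported here. Members named beyond it, the tubulin family among them, were chosen after their values were seen. Alternatives were DESeq2 size factors, library totals without TMM, the DESeq2 1.42.0 test, limma-voom (limma 3.58.1) with weights per library, no filter on low counts, a stricter one (1 CPM in 6 libraries), edgeR without its robust option, the replicate number as a block, removal of mitochondrial, haemoglobin and rRNA genes, the 2 groups alone, no T497A sham group, and each library left out. Promoter sequences are RefSeq's on GRCm38.p6. The test was checked on simulated counts.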

Additional observations from a re-analysis of the deposited data

How the results depend on the processing

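The number of genes called (1773) was 2992 with the 2 groups alone, 3971 with limma-voom and 623 to 1452 with each library left out. Rises (1083) were 1651, 2054 and 463 to 933 in the same order, and falls (690) were 1341, 1917 and 160 to 519, as well as 335 without TMM factors and 1184 with DESeq2. At least 2-fold, rises (265) were 149 to 246 with each library left out, and falls (27) were 11 to 43, 16 with the stricter filter, 42 with DESeq2 and 109 with limma-voom. All other counts over all genes were within 1.5 times of these, and the cause of the differences was not tested. Leaving out any library leaves the same smaller number of samples, yet 1452 genes were called without T497A TAC 1 and 623 without T497A TAC 2. Of 116 named genes called, 63 kept their call in every alternative that tested them, 53 lost it in at least 1, and 4 that were not called (Myh6, Col1a1, Ryr2 and Pln) gained it in at least 1. The only direction that reversed was that of Prkca, whose value was -0.0051 to 0.11 with each library left out. In the lists, limma-voom called 35 falls of 53 in the respiratory chain (main test 3), 31 in fatty acid oxidation (18), 25 in glucose and citrate metabolism (9) and 40 rises in matrix (26), and the 2 groups alone gave 38, 28 and 23 falls in the first 3 of these.

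With the replicate block, 1581 genes were called, 1003 higher and 578 lower. Whether equal numbers pair the libraries cannot be decided from 3 libraries a group. Deviations from the group means of libraries with the same number correlated at -0.0457, 0.0151 and 0.0742. WT sham 1 and 2 each correlated best with another number (0.0432 with T497A TAC 3 and 0.102 with T497A TAC 1), and WT sham 3 with its own. With 3 libraries a group and spread beyond counting error (chi-square per degree of freedom of 10.6 to 31.4 between libraries of a group), small changes may go uncalled. This holds for abundant genes as well as at low counts: Myh6 was estimated at -0.29 ± 0.10 and not called (edgeR, adjusted p = 0.082).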
